A study of Mus musculus and Rattus norvegicus with 30 samples.

Results

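Immediate early genes are genes whose transcription starts within minutes of a stimulus without new protein synthesis. The 10 examined here were taken by symbol: Fos, Fosb, Junb, Egr1, Arc, Nr4a1, Ier2, Dusp1, Npas4 and Btg2. All 10 were found among the 54315 features of the mouse count table, and 9 of them among the 39281 features of the rat count table, which lists no Ier2. RNA had been sequenced from dorsal root ganglia (DRG), the ganglia that hold the cell bodies of sensory neurons. Adult BALB/c and B10.D2 mice of both sexes had spared nerve injury (SNI), in which the common peroneal and sural branches of the sciatic nerve are cut, or a sham operation with the nerve exposed. Ganglia L3 and L4 were taken from 1 animal per library at 28 days. Male Wistar rats had the L5 spinal nerve ligated and transected (SNT) or only exposed, and the L5 ganglia of 3 animals were pooled per library at 21 days. Counts were available for 6 sham and 4 SNI libraries of BALB/c, for 5 sham and 5 SNI libraries of B10.D2, and for 4 sham and 4 SNT libraries of rat. No animal carried a transgene or drug treatment in the labels, and the exact ages at collection are not given in the sources used here.

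Calcium entry, cyclic AMP and growth factor receptors reach these genes through kinases such as ERK, RSK and CaMK, which act on the transcription factors CREB and SRF already bound at their promoters. Fos, Fosb and Junb encode subunits of the dimeric factor AP-1, Egr1 encodes a zinc finger factor, Nr4a1 an orphan nuclear receptor and Npas4 a neuronal factor that responds to calcium. Arc encodes a cytoskeleton-associated protein of synapses, Dusp1 a phosphatase that switches off MAP kinases, Btg2 an antiproliferative adaptor of mRNA deadenylation, and Ier2 a small nuclear protein. In sensory ganglia these genes are known as fast markers of activity, of tissue handling and of axon injury, and their transcripts are short lived. The samples here were taken weeks after surgery, so the first response to surgery was not sampled. A late state after injury and a response to handling at collection cannot be told apart.

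Mouse libraries held between 29.99 and 41.88 M counts each (M stands for mega), and rat libraries between 11.96 and 17.89 M. Levels are counts per M (CPM) scaled by the TMM factor, and 3 counts, the floor used here, equal 0.0716 to 0.100 CPM in mouse and 0.168 to 0.251 CPM in rat. The floors reflect only the error of counting, whereas the 95% intervals of fold changes also include the spread between libraries. The ganglia carried the marks of axon injury. In mouse 9 of the 9 tested axotomy markers rose in each strain, and galanin (Gal), a neuropeptide induced in cut sensory neurons, rose 18.1-fold in BALB/c and 3.49-fold in B10.D2. All 10 sensory neuron markers were detected in mouse. Rat sham library 4 stood apart: its mean log2(CPM + 1) over the 7 counted axotomy markers was 5.15, against 3.75 to 3.87 in the other sham libraries and 5.48 to 6.01 in the SNT libraries. Rat results are therefore also given without sham library 4 and the SNT library with the lowest such mean, SNT 1. In whole ganglia, fewer cells of a type and less RNA per cell cannot be told apart.

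In sham mice the members covered more than 2 orders of magnitude per length. Length here is the union of all exons annotated for a gene, and the order depends on that choice. Per kilobase of exon, over the 11 sham libraries of both strains, Junb stood highest at 6.73 ± 1.43 CPM (SD, n = 11). Nr4a1 followed at 4.98 ± 0.478, Btg2 at 4.33 ± 0.764 and Dusp1 at 3.98 ± 0.649 CPM per kilobase. Each of these 4 genes lay within the sum of the SDs of its neighbour in this order. Fos stood lower, at 2.26 ± 0.609 CPM per kilobase, and its range of 1.47 to 3.13 overlapped that of Ier2, whose mean was 1.75 ± 0.436. Arc and Egr1 lay at 1.25 ± 0.447 and 0.879 ± 0.318 CPM per kilobase and overlapped too. Fosb was far below at 0.140 ± 0.0553 CPM per kilobase, and Npas4 was at 0.0406 ± 0.0208. The sham ganglia as collected thus held far more Junb, Nr4a1, Btg2 and Dusp1 transcript per length than Fosb or Npas4.

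**Figure D1:**
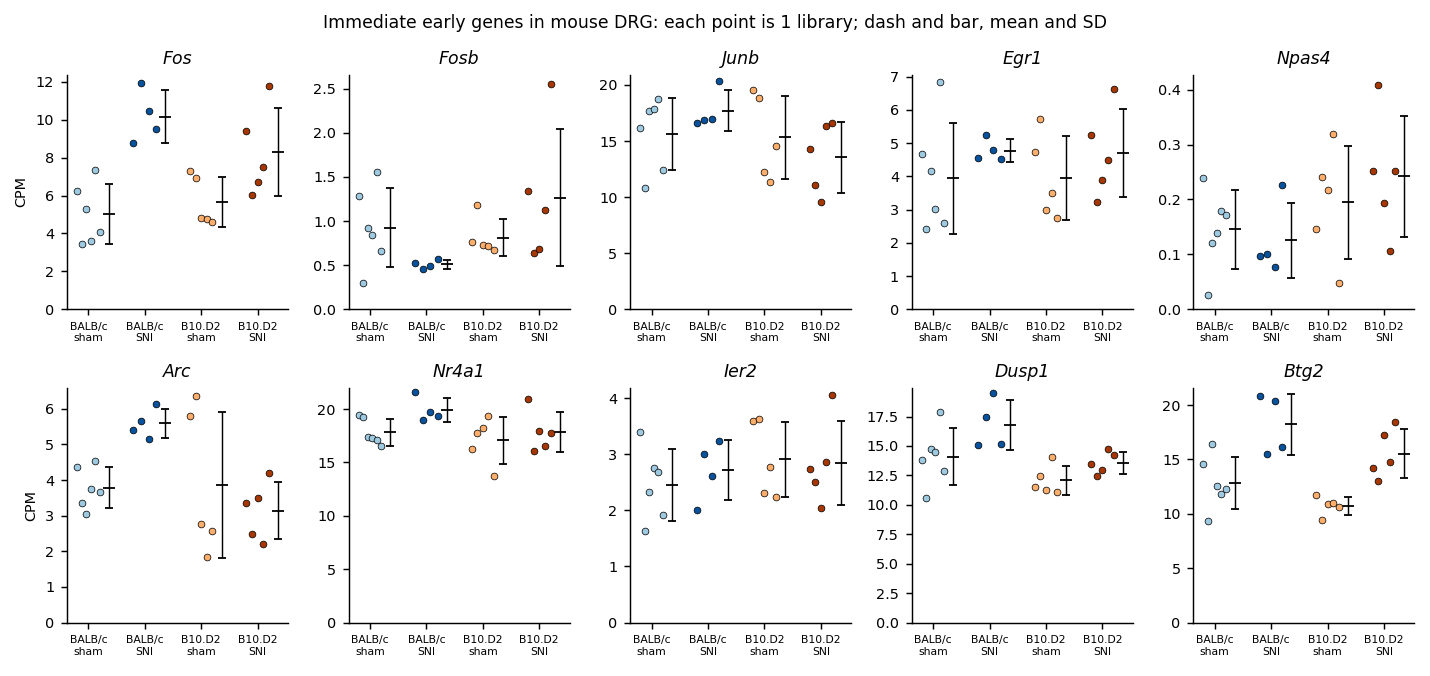
Level of each immediate early gene in mouse DRG, in CPM on a linear axis from 0, for the 4 groups named on the x axis; each point is 1 library and the dash with its bar is the mean and SD. The 4 BALB/c SNI libraries lie above every BALB/c sham library for Fos and Arc, and the 5 B10.D2 SNI libraries lie above every B10.D2 sham library for Btg2.

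Fos (ENSMUSG00000021250, mm10 chr12:85473890-85477273, plus strand) rose after SNI in BALB/c mice. The BALB/c sham libraries ranged from 3.46 to 7.37 CPM with a median of 4.70 CPM, and the 4 SNI libraries held 8.76, 11.96, 10.5 and 9.50 CPM. Every SNI library was above every sham library, an order seen in 4.3% of all 24685 features tested. Fos was 2.04-fold higher after injury, with a log2 fold change of 1.03 (SE 0.211) and an adjusted p of 0.00288 (edgeR quasi-likelihood test). The call held without any single library, with log2 fold changes of 0.91 to 1.19 over the 20 fits.

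In B10.D2 mice the Fos levels pointed the same way with overlap. The sham libraries held 7.28, 6.94, 4.81, 4.74 and 4.61 CPM, and the SNI libraries held 9.41, 6.05, 6.74, 7.52 and 11.8 CPM. All 5 SNI libraries lay above the sham median and 3 of them above the highest sham library. The log2 fold change was 0.56 (SE 0.212) with an adjusted p of 0.158, so the difference did not pass the test. The difference between the strains in the Fos change was -0.46 on the log2 scale (95% interval -1.09 to 0.16), which did not pass the test either (unadjusted p = 0.137, adjusted p = 1).

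Rat Fos also rose after transection. The sham libraries 1 to 4 held 20.2, 21.5, 27.3 and 44.4 CPM, and the SNT libraries held 75.6, 69.6, 66.2 and 47.8 CPM. The groups did not overlap, as in 12.2% of the 13690 features tested in rat. The highest sham value belonged to library 4, which also held raised axotomy markers. Within SNT, library 1 had the lowest axotomy mean (5.48) and the highest Fos. SNT library 4 had the highest mean (6.01) and the lowest Fos. The log2 fold change was 1.19 (SE 0.248, adjusted p = 0.0130). Without sham 4 and SNT 1 it was 1.42 (SE 0.173, adjusted p = 0.000256).

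**Figure D2:**
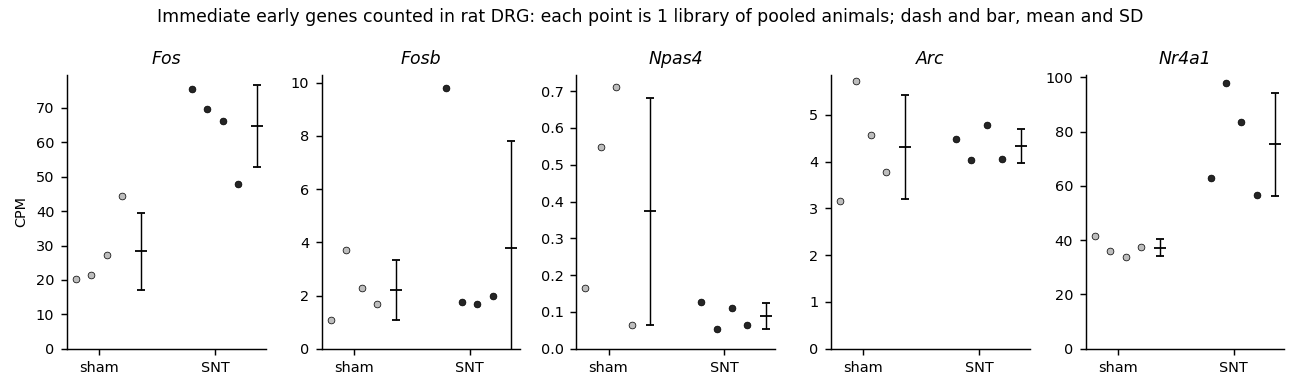
Level of the immediate early genes counted above 0 in rat DRG, in CPM on a linear axis from 0; each point is 1 library of 3 pooled animals, and the dash with its bar is the mean and SD, cut at 0. Fos and Nr4a1 show no overlap between sham and SNT, while the high Fosb mean in SNT rests on 1 library at 9.80 CPM.

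Fosb (ENSMUSG00000003545, chr7:19302696-19310051, minus strand), a close relative of Fos, did not pass the test in any comparison. In BALB/c mice the 6 sham libraries ranged from 0.301 to 1.55 CPM with a median of 0.877 CPM, while the SNI libraries held only 0.519, 0.451, 0.493 and 0.567 CPM. In B10.D2 mice the sham libraries held 0.760, 1.18, 0.734, 0.718 and 0.676 CPM, and the SNI libraries held 1.34, 0.638, 0.679, 1.12 and 2.55 CPM. None of the 4 BALB/c SNI libraries reached the BALB/c sham median, whereas 3 of the 5 B10.D2 SNI libraries exceeded theirs.

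The Fosb log2 fold changes were -0.86 (SE 0.404, adjusted p = 0.200) in BALB/c and 0.66 (SE 0.359, adjusted p = 0.380) in B10.D2, and neither passed the test. The B10.D2 value was 0.21 without SNI 90, the library with the highest Fosb. The strain difference in this change was 1.52 (SE 0.541, 95% interval 0.39 to 2.65) with an unadjusted p of 0.0106 and an adjusted p of 1. Counts behind it were 12 to 91 per library. In rat, SNT library 1 held 9.80 CPM and the other SNT libraries held 1.74, 1.67 and 1.97 CPM, against 1.08, 3.72, 2.28 and 1.69 CPM in sham. The rat log2 fold change of 0.76 (SE 0.625, adjusted p = 0.378) turned to -0.31 without SNT 1.

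Junb (ENSMUSG00000052837, chr8:84974484-84978718, minus strand), the partner subunit of AP-1, was the most abundant member per length and did not pass the test in either strain. BALB/c sham libraries ranged from 10.8 to 18.7 CPM with a median of 16.9 CPM, and SNI libraries from 16.6 to 20.4 CPM. B10.D2 sham libraries ranged from 11.4 to 19.6 CPM and SNI libraries from 9.55 to 16.6 CPM. The groups overlapped in both strains, with log2 fold changes of 0.17 (SE 0.174) and -0.14 (SE 0.174) and adjusted p of 0.614 and 0.752. Junb shares exonic bases with Prdx2 on the opposite strand, and the libraries kept the strand.

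Egr1 (ENSMUSG00000038418, chr18:34859823-34864984, plus strand) spread widely in sham ganglia. In BALB/c sham it ranged from 2.41 to 6.84 CPM with a median of 3.58 CPM, and in BALB/c SNI it held 4.54, 5.24, 4.80 and 4.51 CPM. In B10.D2 it ranged from 2.75 to 5.73 CPM in sham and from 3.24 to 6.64 CPM in SNI. The injured libraries fell inside the sham range in BALB/c, and 1 B10.D2 SNI library exceeded its sham range. The log2 fold changes were 0.28 (SE 0.261, adjusted p = 0.579) in BALB/c and 0.26 (SE 0.259, adjusted p = 0.684) in B10.D2. Single libraries moved both values, to 0.16 without sham 51 and 0.52 without sham 57 in BALB/c, and to 0.07 without SNI 90 and 0.43 without sham 60 in B10.D2.

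Nr4a1 (ENSMUSG00000023034, chr15:101254269-101274795, plus strand) rose in rat and did not pass the test in mouse. In BALB/c it ranged from 16.5 to 19.5 CPM in sham and from 19.0 to 21.6 CPM in SNI, with a log2 fold change of 0.16 (SE 0.0865, adjusted p = 0.276). In B10.D2 it ranged from 13.7 to 19.3 CPM in sham and from 16.1 to 20.96 CPM in SNI, with a log2 fold change of 0.06 (SE 0.0859, adjusted p = 0.801). The upper ends of the 95% intervals, 0.34 and 0.24, bound the rise in mouse.

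Rat Nr4a1 held 41.5, 35.9, 34.0 and 37.7 CPM in the sham libraries and 63.1, 97.9, 83.7 and 56.8 CPM in the SNT libraries. Every SNT library was well above every sham library, an order seen in 12.2% of the 13690 features tested in rat. The log2 fold change was 1.02 (SE 0.170, adjusted p = 0.0106), a 2.02-fold rise, and 1.10 (SE 0.187, adjusted p = 0.00136) without sham 4 and SNT 1. Unlike Fos, Nr4a1 in sham library 4 was within the range of the other sham libraries. The mouse and rat experiments differ in the nerve cut, the ganglion, the day and the RNA fraction sequenced, and no test was made between species.

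Arc (ENSMUSG00000022602, chr15:74669083-74672570, minus strand) showed separate groups in BALB/c without passing the test. The sham libraries ranged from 3.04 to 4.54 CPM with a median of 3.70 CPM, and the SNI libraries held 5.42, 5.67, 5.16 and 6.13 CPM. In B10.D2 sham, libraries 58 and 60 held 5.79 and 6.36 CPM while libraries 67, 77 and 88 held 2.77, 1.84 and 2.56 CPM, and the SNI libraries ranged from 2.19 to 4.20 CPM. The BALB/c groups did not overlap, an order seen in 4.3% of all features tested. The B10.D2 sham libraries alone spanned more than the whole BALB/c set. The log2 fold change was 0.57 (SE 0.244, adjusted p = 0.162) in BALB/c and -0.20 (SE 0.254, adjusted p = 0.770) in B10.D2. Fitted on the BALB/c libraries alone, where the wide B10.D2 spread does not enter, the BALB/c value was 0.57 (SE 0.123, adjusted p = 0.0163). The strain difference was -0.76 (SE 0.353, unadjusted p = 0.0422, adjusted p = 1). Rat Arc did not pass the test, with 3.15 to 5.73 CPM in sham, 4.03 to 4.78 CPM in SNT and a 95% interval of the log2 fold change from -0.45 to 0.47.

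Btg2 (ENSMUSG00000020423, chr1:134075170-134079120, minus strand) was the member that passed the test in both mouse strains. In BALB/c the sham libraries ranged from 9.35 to 16.4 CPM with a median of 12.4 CPM, and the SNI libraries held 20.9, 15.5, 20.4 and 16.2 CPM. In B10.D2 the sham libraries held 11.8, 9.44, 10.9, 11.04 and 10.6 CPM and the SNI libraries held 14.2, 13.0, 17.3, 14.7 and 18.5 CPM. The B10.D2 groups did not overlap, an order found in 2.41% of features, while 2 BALB/c SNI libraries lay inside the sham range. The log2 fold changes were 0.51 (SE 0.129, adjusted p = 0.0151) in BALB/c and 0.53 (SE 0.130, adjusted p = 0.0208) in B10.D2.

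The Btg2 rises differed by 0.02 (95% interval -0.36 to 0.41) on the log2 scale between strains. The BALB/c call was lost without SNI 49 (adjusted p = 0.0675) or SNI 65 (0.0787), and when BALB/c was fitted alone (0.0533). The B10.D2 call was lost without sham 60 (adjusted p = 0.0570), sham 67 (0.0508), SNI 78 (0.0554) or SNI 90 (0.0982), though the log2 fold change stayed between 0.44 and 0.59.

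Dusp1 (ENSMUSG00000024190, chr17:26505590-26562128, minus strand) held 10.6 to 17.9 CPM in BALB/c sham and 15.1, 17.5, 19.5 and 15.1 CPM in BALB/c SNI. In B10.D2 it held 11.1 to 14.1 CPM in sham and 12.5 to 14.8 CPM in SNI. All 9 injured mouse libraries lay above the sham median of their strain. The log2 fold changes were 0.26 (SE 0.101, adjusted p = 0.120) and 0.14 (SE 0.101, adjusted p = 0.537), and neither passed the test. Without BALB/c sham 57, the sham library with the highest Dusp1, the BALB/c value was 0.32 with an adjusted p of 0.0415. Dusp1 shares exonic bases with Ergic1 on the opposite strand.

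Ier2 (ENSMUSG00000053560, chr8:84661331-84662852, minus strand) held 1.63 to 3.40 CPM in BALB/c sham, 2.01 to 3.23 CPM in BALB/c SNI, 2.25 to 3.62 CPM in B10.D2 sham and 2.04 to 4.06 CPM in B10.D2 SNI. The 4 groups overlapped throughout. Its log2 fold changes were 0.16 (SE 0.209, adjusted p = 0.717) and -0.01 (SE 0.204, adjusted p = 0.990).

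Npas4 (ENSMUSG00000045903, chr19:4984355-4990316, minus strand) was close to the limit of detection. It had 1 to 16 counts in each mouse library, or 0.0251 to 0.408 CPM, and 1 to 10 counts in each rat library. It did not pass the filter on low counts in either species and was not tested in the main fit. Fitted with no filter, its log2 fold change was -0.19 (SE 0.523, adjusted p = 0.951) in BALB/c, 0.27 (SE 0.445, adjusted p = 0.895) in B10.D2 and -1.96 (SE 0.729, adjusted p = 0.0846) in rat, and a difference was not detectable at this depth.

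**Figure D3:**
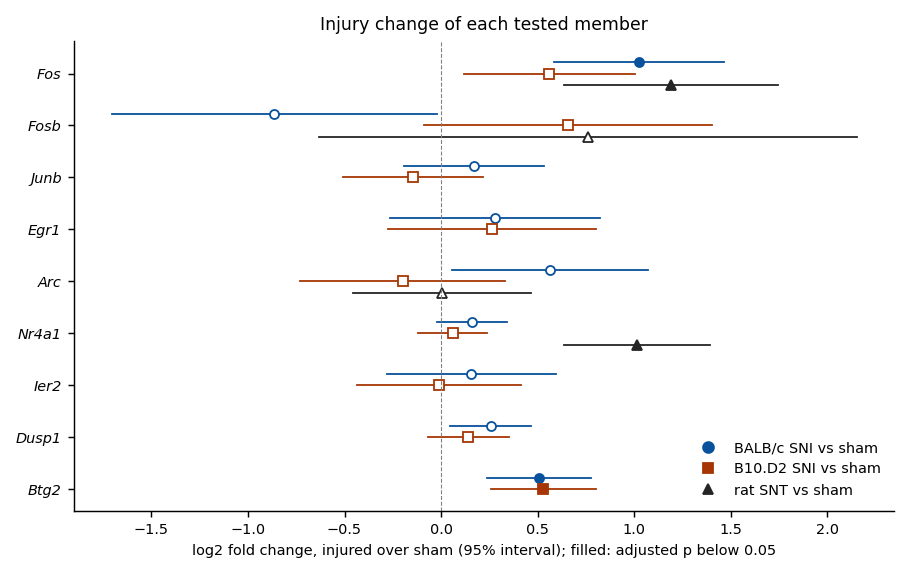
Injury change of the 9 members tested in mouse and of the 4 tested in rat, as the log2 ratio of injured to sham and its 95% interval; filled symbols have an adjusted p below 0.05. Fos is filled in BALB/c and rat, Btg2 in both mouse strains and Nr4a1 in rat.

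Counted over the members, 2 of 9 tested were called in BALB/c, both higher, against 9.69% of all features called, 4.82% higher and 4.87% lower. In B10.D2 mice 1 of 9 was called, higher, against 4.58% of all features, 2.1% higher and 2.48% lower. In rat 2 of 4 tested were called, both higher, against 27.4% of all features, 12.3% higher and 15.1% lower. The median log2 fold change of the tested members was 0.26 in BALB/c, 0.14 in B10.D2 and 0.89 in rat, where the medians of all features were 0.0033, 0.0076 and 0.0027. Leaving out 1 library gave 1 to 3 called in BALB/c and 0 to 1 in B10.D2, through the changes in the Btg2 and Dusp1 calls given above. For the strain difference in the injury change, 0 of 9 members passed (2 at an unadjusted p under 0.05, and 0 by DESeq2), against 0.0243% of all features.

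No member passed the test between strains or sexes when every library was used. Between sham mice of the strains 0 of 9 members were called by edgeR and by DESeq2, where 21.6% of all features were. At an unadjusted p under 0.05 the count was 0. Without BALB/c sham 51, however, Btg2 at -0.34 (adjusted p = 0.0430) and Dusp1 at -0.26 (adjusted p = 0.0438) were called lower in B10.D2. The largest sham differences belonged to Btg2, at -0.25 (95% interval -0.52 to 0.0067) on the log2 scale in B10.D2 against BALB/c, and to Ier2, at 0.22 (95% interval -0.19 to 0.64). Between female and male mice 0 of 9 were called by either tool, against 0.243% of features, and 1 had an unadjusted p under 0.05: Dusp1, higher in females by 0.15 (95% interval 0.0047 to 0.30, adjusted p = 0.407).

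For 4 members the mouse sequences just upstream of a RefSeq start site are shown. Fos and Fosb varied together between mouse libraries, and Fos also rose in BALB/c and in rat. Btg2 rose after SNI in both strains. Nr4a1 rose after SNT in rat and did not pass the test in mouse. A link between sequence and these changes was not tested. The sequences are the 250 bases before the RefSeq start on GRCm38.p6, read along the gene's strand. For Nr4a1 this start lies well inside the gene interval given above, which is from another annotation. Capitals mark TGACG or its reverse complement, the core of the cyclic AMP response element that CREB binds, and the letters TATAAA.
Fos, chr12:85473640-85473889, plus strand: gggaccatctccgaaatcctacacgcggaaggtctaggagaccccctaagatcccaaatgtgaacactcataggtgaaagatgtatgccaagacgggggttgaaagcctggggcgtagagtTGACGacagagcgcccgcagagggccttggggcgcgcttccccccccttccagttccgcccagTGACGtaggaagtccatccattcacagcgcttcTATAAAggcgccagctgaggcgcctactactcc
Fosb, chr7:19310046-19310295, minus strand: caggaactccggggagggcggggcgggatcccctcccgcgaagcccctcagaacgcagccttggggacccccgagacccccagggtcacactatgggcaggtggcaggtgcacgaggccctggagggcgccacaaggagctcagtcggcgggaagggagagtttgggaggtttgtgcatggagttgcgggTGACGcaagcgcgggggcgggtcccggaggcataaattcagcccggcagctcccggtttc
Btg2, chr1:134079156-134079405, minus strand: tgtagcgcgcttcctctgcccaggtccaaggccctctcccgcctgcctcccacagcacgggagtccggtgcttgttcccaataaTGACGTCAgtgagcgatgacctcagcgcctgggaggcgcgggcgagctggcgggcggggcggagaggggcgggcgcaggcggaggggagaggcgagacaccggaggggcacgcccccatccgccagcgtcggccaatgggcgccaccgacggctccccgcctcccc
Nr4a1, chr15:101266596-101266845, plus strand: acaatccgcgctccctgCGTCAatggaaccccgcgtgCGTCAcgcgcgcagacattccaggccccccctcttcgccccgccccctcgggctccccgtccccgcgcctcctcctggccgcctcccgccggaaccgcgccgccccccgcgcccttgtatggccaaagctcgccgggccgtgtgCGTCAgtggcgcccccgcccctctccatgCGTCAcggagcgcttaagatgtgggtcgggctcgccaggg

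RefSeq promoter windows of 300 bases (250 before and 50 after the start) were matched for 7 members: those 4 and Junb, Dusp1 and Npas4. The Dusp1 start, like that of Nr4a1, lies well inside the gene interval given above. All 7 held TGACG on either strand, as did 20.8% of the 32851 windows in the table. In Fos the matches began at -129 and -66 from the start, with TATAAA at -33. Nr4a1 held 4 such cores, at -233, -213, -69 and -40. The full palindrome TGACGTCA, which contains the core on each strand, was found in Btg2 at -166 and in Dusp1 at -143, and in 1.79% of all windows. TATAAA, searched on both strands, was found in 2 of the 7 and in 13.6% of all. The CArG box, the site of SRF, was found in 0 of the 7 windows and in 1.63% of all, which says only that its letters are not in these windows. The matches are descriptions of sequence and were not tested for binding.

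In rat, 4 members carried no reads. Junb, Egr1, Dusp1 and Btg2 were listed at 0 in all 8 libraries. Of 9944 rat genes that share a symbol with a protein-coding gene at 5 CPM or more in every mouse library, 3738 (37.6%) were likewise listed at 0 throughout. These zeros were spread unevenly over the chromosomes. Among the counterparts of mouse chromosome 8, which holds Junb and Ier2, 544 of 545 were at 0, and among those of chromosome 18, which holds Egr1, 267 of 269 were. For chromosome 12, the site of Fos, 0 of 358 were at 0, and for chromosome 15, the site of Arc and Nr4a1, 0 of 400. For chromosome 1, the site of Btg2, 286 of 583 were at 0 (49.1%), and for chromosome 17, the site of Dusp1, 177 of 424 (41.7%), closer to the share over all chromosomes. No level is read from the zeros of these 4 members.

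The members varied between mouse libraries of the same group more than most features of their abundance. The biological coefficient of variation, the spread that edgeR estimates between libraries beyond counting error, was 22.8% for Fos where the trend at its abundance was 14.3%. It was 27.7% for Egr1 (trend 16.1%), 37.0% for Fosb (trend 21.7%), 18.9% for Junb (trend 11.4%) and 26.3% for Arc (trend 16.3%). The ratio to the trend placed these 5 genes between the 94.6th and 95.7th percentile of all 24685 features. Ier2 (85.9th) and Btg2 (86.6th) were less extreme, and Dusp1 (69.5th) and Nr4a1 (63.0th) lay below their trends, with 10.99% and 9.43%. In rat the ratio of Fosb stood at the 98.0th percentile and that of Arc at the 30.8th. Relative to the trend, Fos, Fosb, Junb, Egr1 and Arc thus varied most among the members in mouse. Nr4a1 and Dusp1 varied least among them, though their ratios were still higher than those of most features.

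This spread was shared. After strain, surgery and sex were fitted out of log2(CPM + 1), Fos and Egr1 rose and fell together over the 20 mouse libraries, with Pearson r = 0.945 and Spearman rho = 0.947. The permutation p was 1e-05 for both, the smallest that 100000 permutations can give (adjusted p 4e-05 and 8e-05 over the 8 members compared). Within strains the Pearson r was 0.945 in BALB/c and 0.946 in B10.D2 (10 libraries each), and without the 2 libraries farthest from the Fos median it was 0.921.

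Fosb followed Fos with r = 0.830 and rho = 0.788, Ier2 with 0.746 and 0.749, and Junb with 0.690 and 0.672, with permutation p of 1e-05 and 8e-05, 0.00025 and 0.00019, and 0.00091 and 0.00163. The corresponding values were 0.648 and 0.660 for Dusp1 (permutation p = 0.00197 and 0.00206) and 0.647 and 0.693 for Arc (permutation p = 0.00208 and 0.00096). Adjusted p-values of these 5 genes were 4e-05 to 0.00277 for r and 0.00032 to 0.00275 for rho. Without the 2 farthest libraries r was 0.732 for Fosb, 0.714 for Ier2, 0.628 for Junb, 0.606 for Arc and 0.490 for Dusp1, which then missed the threshold (adjusted permutation p = 0.0512). For Btg2 r was 0.299 and rho 0.254 (p = 0.198 and 0.276, adjusted 0.227 and 0.315), and 0.297 without those libraries. For Nr4a1 r was 0.128 and rho 0.202 (p = 0.591 and 0.395, adjusted 0.591 and 0.395), and 0.233 without them. So 6 of the 8 passed the threshold, and Btg2 and Nr4a1 did not. Within BALB/c and B10.D2 respectively, r was 0.837 and 0.827 for Fosb, 0.646 and 0.870 for Ier2, 0.590 and 0.809 for Junb, 0.739 and 0.705 for Arc, 0.817 and 0.452 for Dusp1, 0.254 and 0.381 for Btg2, and -0.265 and 0.410 for Nr4a1. With 10 libraries the threshold was missed by Ier2 (adjusted permutation p = 0.0753) and Junb (0.0981) in BALB/c and by Dusp1 (0.248) in B10.D2.

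**Figure D4:**
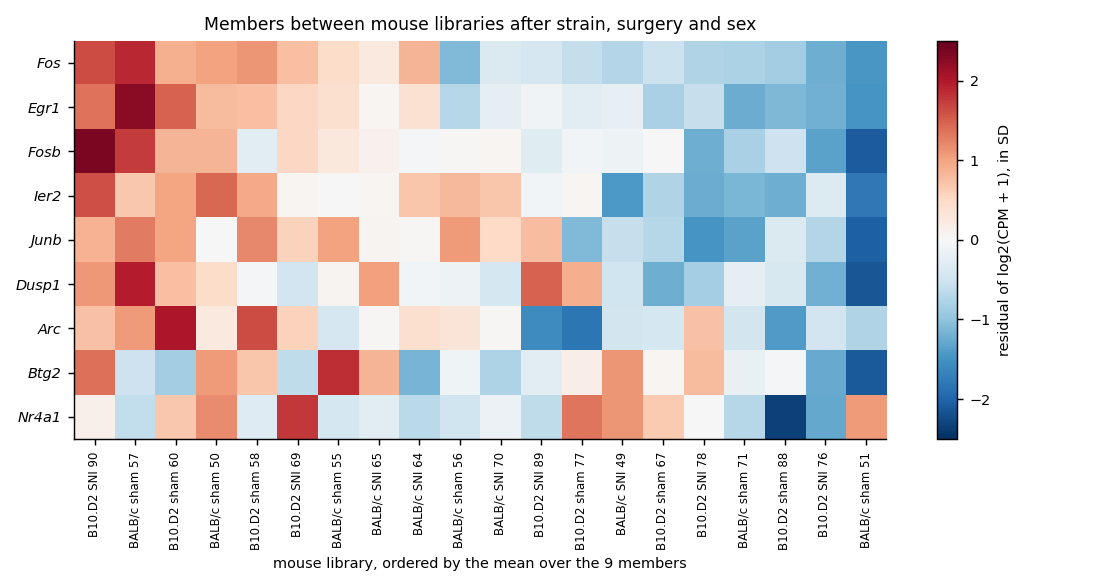
Residual of log2(CPM + 1) of the 9 tested members in the 20 mouse libraries after strain, surgery and sex, in SD of each gene (red, higher than the group; blue, lower), with libraries ordered by the mean over members. Fos, Egr1, Fosb, Ier2 and Junb change colour together from B10.D2 SNI 90 on the left to BALB/c sham 51 on the right, and Nr4a1 does not.

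The libraries at the ends came from different groups. The mean residual over the 9 members, in SD, was highest in B10.D2 SNI 90 (1.24), BALB/c sham 57 (1.09) and B10.D2 sham 60 (0.862) and lowest in BALB/c sham 51 (-1.42), B10.D2 SNI 76 (-1.01) and B10.D2 sham 88 (-0.921). Sham libraries of both strains and injured B10.D2 libraries thus stood at each end, while the 4 BALB/c SNI libraries lay between -0.205 and 0.237. In B10.D2 sham, libraries 58 and 60 were the highest 2 of the 5 for Fos, Junb, Egr1, Arc and Ier2. In BALB/c sham, library 51 was the lowest of the 6 for Fos, Fosb, Junb, Egr1, Ier2, Dusp1 and Btg2, while its Nr4a1, at 19.2 CPM, was the second highest.

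Technical and cellular measures were set beside this common spread. Of 10 marker lists and the library total, 0 correlated with the mean of the members at an adjusted p below 0.05 by Pearson (5 at an unadjusted p below 0.05), and 1 did by Spearman. Red blood cell genes had r = 0.584 and rho = 0.641 (permutation p = 0.00712 and 0.00301, adjusted p = 0.0745 and 0.0331). Their summed level ranged over 220 to 1313 CPM in the mouse libraries, with none of the 5 listed genes at 0. The library total had r = -0.541 and rho = -0.531 (permutation p = 0.0136 and 0.0170, adjusted p = 0.0745 and 0.0937). Without the 2 libraries farthest on the x axis r was 0.613 for red blood cell genes and -0.613 for the total, and both passed the threshold (adjusted permutation p = 0.0404). Within BALB/c and B10.D2, r was 0.746 and 0.481 for red blood cell genes and -0.465 and -0.640 for the total. The sensory neuron list had r = 0.129 and rho = 0.123 (permutation p = 0.587 and 0.604, adjusted p = 0.793 and 0.664), and 0.0921 without the 2 farthest libraries. Satellite glia, endothelium, pericyte, fibroblast and skeletal muscle lists had r between 0.0011 and 0.210 (adjusted permutation p = 0.683 to 0.996).

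A further 3 lists had an unadjusted permutation p below 0.05 by Pearson. They were axotomy (r = 0.510, rho = 0.388, p = 0.0205 and 0.0909, adjusted 0.0750 and 0.250), macrophage (r = 0.462, rho = 0.448, p = 0.0403 and 0.0491, adjusted 0.0887 and 0.180) and Schwann cell and myelin (r = -0.480, rho = -0.277, p = 0.0313 and 0.236, adjusted 0.0861 and 0.520). Without the 2 farthest libraries their r was 0.227, 0.327 and -0.0446, so the relation of the Schwann cell list rested on those libraries. Within BALB/c and B10.D2 r was 0.583 and 0.453 for axotomy, 0.471 and 0.488 for macrophage and -0.721 and -0.0243 for Schwann cell and myelin. With the library total and the red blood cell level as further terms, r with Fos was 0.914 for Egr1, 0.850 for Fosb, 0.668 for Ier2, 0.603 for Junb, 0.538 for Dusp1 and 0.505 for Arc, and the same 6 genes had adjusted permutation p below 0.05 (8e-05 to 0.0317).

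Among 18584 other features whose mean reached 1 CPM, those most like the mean of the members across the 20 libraries were Hoxc8, a homeobox factor of body position (r = 0.852), Ccm2l (0.825), Setd1a, a histone methyltransferase (0.822), Fosl2, another AP-1 subunit (0.821), and Serpine2, a protease inhibitor (0.810). These r values are descriptions over the same libraries, ranked after search, and carry no p. An r above 0.5 was found in 1042 of the 18584 features (5.61%). It was found in 5 of 18 other inducible transcription factors (27.8%), in 6 of 25 other inducible response genes (24%), in 9 of 25 genes of upstream signalling (36%) and in 1 of 10 ERK feedback inhibitors (10%).

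Other inducible transcription factors, from the same and related families, were called as well. Of 19 tested transcription factors from a list of 21 other inducible factors, 9 rose in BALB/c and 3 in B10.D2, with none lower. Among all features 4.82% and 2.1% were called higher. Median log2 fold changes of the factors were 0.38 and 0.16. Atf3, the stress factor induced in injured sensory neurons, rose 9.42-fold in BALB/c (log2 fold change 3.24, SE 0.292, adjusted p = 3.1e-07) and 6.44-fold in B10.D2 (2.69, SE 0.304, adjusted p = 1.79e-05). Fosl2 rose by 0.92 (SE 0.162, adjusted p = 0.000682) and 0.68 (SE 0.163, adjusted p = 0.0172). Csrnp1 (0.65, SE 0.143, adjusted p = 0.00493) and Jun, the main partner of Fos (0.57, SE 0.141, adjusted p = 0.0117), rose in BALB/c, and Klf6 (0.25, SE 0.0578, adjusted p = 0.0147) in B10.D2. The B10.D2 count fell from 3 to 1 without sham 67. The list also holds Atf3, which is an axotomy marker too.

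**Figure D5:**
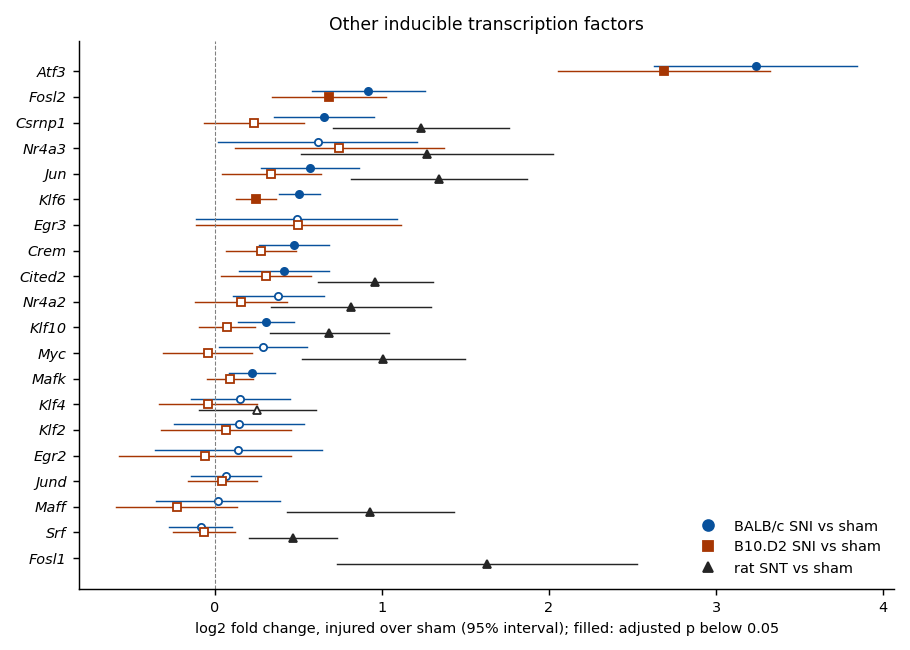
Injury change of the other inducible transcription factors, as the log2 ratio of injured to sham and its 95% interval, in BALB/c, B10.D2 and rat; filled symbols have an adjusted p below 0.05. Atf3 leads in mouse, at 3.24 and 2.69, and nearly every factor tested in rat is filled.

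In rat 10 of the 11 tested factors rose, with a median of 0.96, against the 12.3% of all features called higher. Fosl1, an AP-1 subunit, rose by 1.63 (SE 0.403, adjusted p = 0.0188), Jun by 1.34 (SE 0.237, adjusted p = 0.0107), Nr4a3, a close relative of Nr4a1, by 1.27 (SE 0.338, adjusted p = 0.0235) and Csrnp1 by 1.24 (SE 0.237, adjusted p = 0.0116). Without sham 3 or SNT 2 only 4 or 6 of the 11 were called, and without sham 4 and SNT 1 together 10 were. Atf3 was listed at 0 in every rat library, as were the axotomy markers Gap43 and Stmn4, and no level is read from these zeros.

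Among other inducible response genes the calls went both ways in mouse. Of 26 tested, 5 rose and 1 fell in BALB/c and 1 rose and 1 fell in B10.D2, with medians of 0.0042 and -0.12. Among all features 9.69% were called in BALB/c and 4.58% in B10.D2. In BALB/c the called genes with the largest changes were Socs3, an inhibitor of cytokine signalling (0.62, adjusted p = 0.0321), Ier5 (0.55, adjusted p = 0.00171), Dusp6, a phosphatase of ERK (0.47, adjusted p = 0.0454), and Btg1, the close relative of Btg2 (0.39, adjusted p = 0.000502). In B10.D2 they were Amigo3 (-0.32, adjusted p = 0.00511) and Btg1 (0.27, adjusted p = 0.0208). The BALB/c count fell from 6 to 3 without SNI 49 or SNI 65, and the B10.D2 count from 2 to 1 without sham 58, SNI 78 or SNI 90. In rat 8 of 16 rose and 1 fell, against 12.3% of all features called higher and 15.1% lower. Dusp5 was at -1.52 (adjusted p = 0.0176), Ier5l at 1.06 (adjusted p = 0.0148) and Dusp6 at 0.95 (adjusted p = 0.0137). Zfp36, which destabilises inflammatory mRNAs, was at 1.15 (adjusted p = 0.00722).

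The kinases and factors upstream were mostly uncalled in mouse, where 9.69% of all features were called in BALB/c and 4.58% in B10.D2. Of 25 tested, 2 rose and 1 fell in BALB/c: Elk3, a partner of SRF (0.47, adjusted p = 0.00193), Rps6ka1 (0.30, adjusted p = 0.0366) and Rps6ka3 (-0.31, adjusted p = 0.00703), both genes of RSK kinases. In B10.D2 0 of 25 were called by edgeR and 2 by DESeq2, with a median of -0.01. In rat 7 of 20 rose and 1 fell, against 12.3% of all features called higher and 15.1% lower. The changes were led by Elk3 (0.87, adjusted p = 0.0230), Rps6ka1 (0.82, adjusted p = 0.0169), Crtc3 (0.63, adjusted p = 0.0367) and Mkl1 (0.52, adjusted p = 0.0206). The rat count of 8 was less stable, at 4 without sham 1 or SNT 4, 3 without sham 2, 0 without sham 3, and 1 without SNT 2 or SNT 3.

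Of the 10 ERK feedback inhibitors, Dusp6 alone was called in BALB/c and 0 in B10.D2 by edgeR (1 by DESeq2). The shares of all features called by edgeR were 9.69% and 4.58%. In rat 4 of 6 rose and Dusp5 fell, against 12.3% of all features called higher and 15.1% lower. Dusp6 was at 0.95, Dusp7 at 0.87 (adjusted p = 0.0104) and Spry1 at 0.73 (adjusted p = 0.0150). The rat count of 5 was 3 without SNT 2. Dusp4, Dusp5 and Dusp6 belong to both of these lists.

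Other cell types moved with injury as well, and their part in the rises above was not tested. The shares of all features called higher were 4.82% in BALB/c, 2.1% in B10.D2 and 12.3% in rat. Those called lower were 4.87%, 2.48% and 15.1%. In BALB/c 3 of 8 macrophage markers rose, and the summed macrophage level was 67.6 to 167 CPM in sham and 121 to 179 CPM in SNI libraries. In B10.D2 0 of 8 were called, with 134 to 151 CPM in sham and 129 to 205 CPM in SNI. In rat 1 of 4 tested rose, with 65.04 to 175 CPM in sham and 172 to 247 CPM in SNT. Cd68, Aif1, Csf1r and Mrc1 were listed at 0 in rat, and no level is read from these zeros. Satellite glia markers were called higher in 2 of 6 in BALB/c and 1 of 6 in B10.D2. Sensory neuron markers were called lower in 3 of 10 in each strain. In rat 2 of 4 tested sensory neuron markers were called lower (median log2 fold change -1.47). The 1 red blood cell gene tested in rat was also lower (-1.49). Of 4 fibroblast and meninges markers tested in rat, 2 were higher and 1 lower. Called higher in rat were 1 of 3 Schwann cell, 1 of 2 satellite glia and 1 of 2 endothelium markers. No pericyte or skeletal muscle marker was called in rat. Of the red blood cell genes, 0 of 5 were called in each strain. Their median summed level, with the range, was 541 CPM (290 to 1122) in BALB/c sham and 924 CPM (820 to 1040) in SNI. For B10.D2 it was 783 CPM (220 to 1313) in sham and 419 CPM (346 to 1030) in SNI. The groups thus overlapped, with opposite directions of the medians. Whether this level bears on the Fos results of the strains was not tested. Most of the members are known to be inducible in neuronal and non-neuronal cells alike, and whole ganglia do not show which cells held the transcripts.

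Assembled LncRNAs were looked for beside the members, since the study catalogued them. Within 50 kb of a member 9 assembled LncRNAs were found, and 8 of them were tested. None was called in either strain. LncRNA5542 (chr8:84957675-85028404, plus strand) overlaps Junb on the opposite strand, and its level was 3.59 ± 0.366 CPM (SD, n = 6) in BALB/c sham and 3.93 ± 0.508 (SD, n = 4) in SNI (log2 fold change 0.13, SE 0.112, adjusted p = 0.542). LncRNA6982 (chr15:101288261-101292181, plus strand), downstream of Nr4a1, had the largest log2 fold change of the 8 in BALB/c, 0.54 (SE 0.221, adjusted p = 0.138), and one of 0.10 (SE 0.223, adjusted p = 0.884) in B10.D2, where the largest was that of LncRNA5260 near Fosb at -0.21 (SE 0.276, adjusted p = 0.771).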

How the data were processed

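Groups were taken from the sample labels. Read pairs of strand-specific libraries (ribodepleted in mouse, polyadenylated RNA in rat) were aligned by the authors with STAR to mm10 and rn6, and counted with HTSeq over Ensembl genes and assembled LncRNAs. The deposited tables hold raw counts per feature. The deposited result tables hold the authors' own DESeq2 comparisons, of which only the symbol column was read. The deposited annotation gives exon positions, another kind of value, of the assembled LncRNAs. Sample 59 (B10.D2 sham) and sample 66 (BALB/c SNI) of the labels were not analysed here.

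The main test was edgeR's quasi-likelihood F test (edgeR 4.0.16, R 4.3.3) after TMM scaling and filterByExpr, with terms for sex and for strain by surgery in mouse and surgery in rat. P-values were adjusted by the Benjamini-Hochberg method over all features, and an adjusted p below 0.05 was called. The tests are two-sided. Rat replicates were numbered 1 to 4 in the order of the labels. The sham and the SNT library of each replicate number share a run number in their titles, which the main test did not use. Positions and exon lengths are from GENCODE M21 on mm10, which is not the annotation the authors counted over. Correlations used residuals of log2(CPM + 1), with two-sided permutation tests of 100000 resamples and adjustment over the 8 genes, or over the 11 measures. Permuting residuals treats them as exchangeable. The fits were tested on simulated data. Alternatives were other scaling, filters and tools (DESeq2 1.42.0), other terms, each strain alone and leaving out libraries. The members and lists were chosen with earlier results of these data known. All members were named, and of each other list up to 4 called genes with the largest changes.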

Additional observations from a re-analysis of the deposited data

Results flagged for a closer look

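A gap between the most extreme library and the next that was large for the range of its group (Dixon's test at 95%) was found in 4 of the 50 groups of 4 to 6 libraries examined over the members, and chance alone flags about 1 in 20. Fosb in B10.D2 sham 60 was at 1.18 CPM, and the next library was at 0.760 CPM. Fosb in rat SNT 1 was at 9.80 CPM, and the next was at 1.97 CPM. In BALB/c SNI 70, Junb was at 20.4 CPM against 17.0 CPM in the next library, and Npas4 was at 0.227 CPM, or 8 counts, against 0.100 CPM.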

How the results depend on the processing

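The number of members called was the same under other scaling, filters, tools and terms in each comparison. It was 2 in BALB/c, 1 in B10.D2, 2 in rat and 0 for the strain difference, the sham strains and sex. The genes behind an equal count could differ. With BALB/c fitted alone by edgeR, Arc was gained (adjusted p = 0.0163) and Btg2 was lost (adjusted p = 0.0533). Leaving out 1 library gave 1 to 3 in BALB/c, 0 to 1 in B10.D2 and 0 to 2 between the sham strains (2 without BALB/c sham 51). With the run number of the rat titles as a replicate block, 2 members were again called and Fos was at 1.26 (adjusted p = 0.0374). With this block the count of upstream signalling genes called in rat went from 8 to 4. The residual correlation of libraries that share a number was -0.29 to 0.05, against -0.56 to 0.49 for the other pairs. With so few libraries this does not settle whether the numbers pair them.

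Signs changed only for values that had not passed the test. Without rat sham 4 and SNT 1 together Fosb was at -0.43 and Arc at -0.0684. Leaving out 1 library gave -0.31 to 1.16 for rat Fosb, -0.0890 to 0.20 for rat Arc, -0.41 to 0.0059 for Arc, -0.0056 to 0.11 for Nr4a1 and -0.18 to 0.0755 for Ier2 in B10.D2, where Ier2 was 0.0367 with the strain fitted alone. Among values that kept their sign without passing, leaving out 1 library gave 0.06 to 0.25 for Junb and 0.05 to 0.30 for Ier2 in BALB/c, and -0.24 to -0.06 for Junb, 0.07 to 0.18 for Dusp1 and 0.37 to 0.66 for Fos in B10.D2. Members correlated with Fos past the threshold numbered 6 in the main setting and 4 to 6 otherwise. Without the 2 libraries farthest on the x axis, 2 measures passed with the mean of the members, red blood cell genes and the library total, in place of 0. The causes were not tested. At this depth Npas4 had 1 to 16 and Fosb 12 to 91 counts per mouse library.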
